A study of Arabidopsis thaliana with 18 samples.

Results

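MGL (AT1G64660) is the Arabidopsis thaliana gene for methionine gamma-lyase, and it was followed here across the leaf petioles and leaf blades of wild-type seedlings under 3 light treatments. It is represented by 1 of the 22810 probe sets in the deposited table, the probe set whose single gene in the probe annotation is MGL, 1 of 13350 such genes. The gene was chosen by its measured ratios, with earlier results of these data known: it was selected on its higher value in petioles after a far-red pulse than in dark petioles. Its petiole values, and every difference that uses petiole arrays, are therefore given as a description with no test, and tests are given for the blade alone. The blade tests still take their estimate of the spread between replicates from all 18 arrays, petioles included.

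Until the age of 19 days the seedlings stood at 22 °C under unbroken white light. They then received a far-red pulse followed by 2 h of darkness (FRD), 2 h of darkness alone (D), or 2 h more of white light (WL). RNA of rosette leaves 3 and 4 was prepared separately from petioles and blades and hybridised as biotin-labelled cRNA to Affymetrix arrays. This gives 18 arrays in 6 groups of 3, described by the submitters as independent biological replicates; all groups are wild type, and the labels name no ecotype and no number of plants per array.

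Each value relates a probe set to that probe set's median over the 3 white-light arrays of its tissue, as a linear ratio. That reading comes from the values themselves, since the white-light median was exactly 1 for all 22810 probe sets in each tissue. The ratio removes the level of a gene, so whether white-light petioles held more MGL transcript than white-light blades, and how far the signal stood above background, cannot be read from it. The labels petiole and blade could not be checked against tissue markers for the same reason. In bulk tissue of this kind, more cells with the transcript and more transcript per cell cannot be told apart.

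Methionine gamma-lyase is a pyridoxal phosphate-dependent enzyme that splits methionine into methanethiol, 2-oxobutanoate and ammonia. In Arabidopsis it limits the build-up of methionine, and the 2-oxobutanoate it releases can enter the synthesis of isoleucine, which otherwise starts from threonine. Methionine itself comes from cysteine and O-phosphohomoserine. It is also the precursor of S-adenosylmethionine, and through that of ethylene. A far-red pulse converts active phytochrome to its inactive form, which in Arabidopsis sets off the shade response, and petiole elongation is part of that response.

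In petioles given the far-red pulse, MGL stood at ratios of 12.9, 16.98 and 8.697. The dark petioles without a pulse had 1.868, 1.972 and 2.339, and the white-light petioles 1, 1.426 and 0.962. The 3 groups of petiole arrays did not overlap: all FRD arrays lay above all D arrays, and all D arrays above all WL arrays. The lowest FRD array, replicate 3, was still well above the highest D array.

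In blades the same order of means appeared on a smaller scale. MGL stood at 1.689, 2.232 and 1.811 in FRD blades, at 1.147, 1.242 and 0.91 in D blades, and at 1.141, 1 and 0.933 in WL blades. The FRD arrays lay above every D and every WL array of the blade, while the D and WL arrays overlapped.

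**Figure D1:**
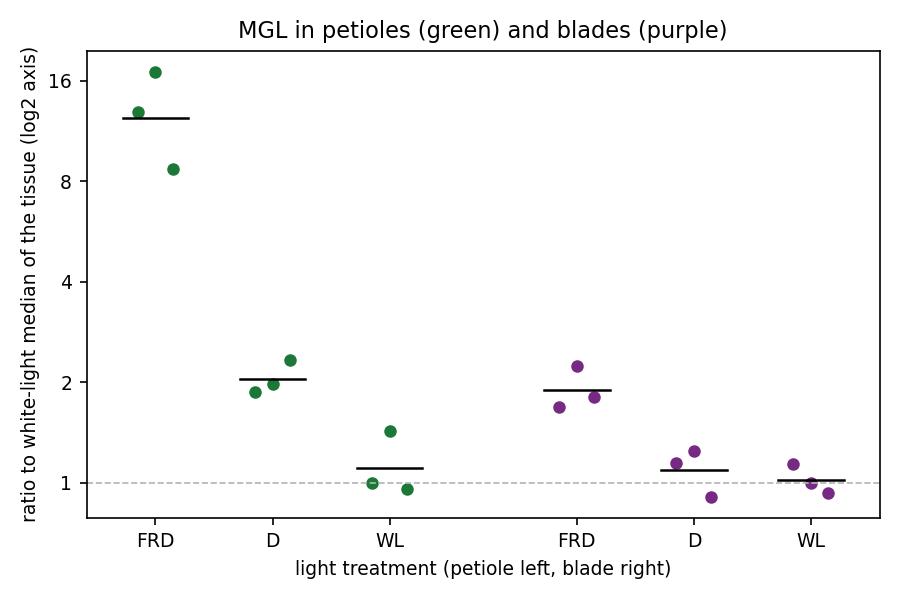
MGL ratio to the median of the white-light arrays of that tissue (vertical log2 axis) in each of the 18 arrays, with petioles in green on the left and blades in purple on the right, each as FRD, D and WL. Points are arrays and bars are means on the log2 scale; the petiole FRD arrays run from 8.697 to 16.98, and the highest blade array is an FRD array at 2.232.

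The mean ratio in petioles was 12.9 ± 4.14 in FRD, 2.06 ± 0.247 in D and 1.13 ± 0.258 in WL (SD, n = 3 each). In blades it was 1.91 ± 0.285 in FRD, 1.1 ± 0.171 in D and 1.02 ± 0.106 in WL (SD, n = 3 each). The petiole FRD arrays varied most among themselves, with the highest 1.95 times the lowest, and with an SD of 0.49 on the log2 scale. In the other 5 groups that SD lay between 0.15 and 0.31. The blade FRD arrays (1.689 to 2.232) and the petiole D arrays (1.868 to 2.339) covered overlapping ranges, each relative to its own tissue in white light.

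The far-red pulse separated petioles by 2.6 ± 0.23 log2 units in FRD over D, which is 6.05-fold. The error is the standard error of a limma fit of all 18 arrays, which takes the spread of a probe set from all 6 groups. This is the contrast for which MGL was chosen. In it 96 of the 22746 probe sets tested had a more positive change, 46 of them among the probe sets annotated to 1 gene. For background, 1.09% of all probe sets were called in this contrast at a limma adjusted p under 0.05, and 7.03% had 3 FRD arrays all above the 3 D arrays.

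Darkness alone went with a smaller difference in petioles, 0.88 ± 0.23 log2 units in D over WL, or 1.85-fold. Here 1976 probe sets had a more positive change, and 13.9% of probe sets had D arrays all above the WL arrays. The pulse and darkness together gave 3.48 ± 0.23 log2 units in FRD over WL, or 11.2-fold, with 54 probe sets more positive. In that contrast 13.5% of probe sets had FRD arrays all above the WL arrays. These petiole contrasts share arrays with each other, so they are not separate pieces of evidence.

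In blades the pulse put MGL 0.8 ± 0.23 log2 units higher in FRD than in D, 1.74-fold. This difference did not pass the test after adjustment over all probe sets (limma, unadjusted p = 0.00399, adjusted p = 0.227, 3 arrays per group), although the FRD arrays all lay above the D arrays, which held for 5.34% of probe sets. Its 95% interval ran from 0.3 to 1.3 log2 units, or 1.23-fold to 2.45-fold. In this contrast 0.651% of all probe sets were called. The blade D arrays used as its base also had a higher control probe set for large-subunit ribosomal RNA, at 0.34 ± 0.25 in FRD blades, 0.97 ± 0.2 in D blades and -0.08 ± 0.22 in WL blades (mean log2 ratio ± SD, n = 3), and its part in the result was not tested.

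MGL in darkened blades was close to white light, at 0.09 ± 0.23 log2 units in D over WL (limma adjusted p = 0.871), with an interval from -0.4 to 0.59. With aligned 75th percentiles it stood at -0.24, where the median of all probe sets was -0.35. In this contrast 11.2% of all probe sets were called, and MGL was not among them. Against white light, the pulse with darkness raised MGL in blades by 0.89 ± 0.23 log2 units, 1.86-fold (limma adjusted p = 0.0235). The FRD arrays did not overlap the WL arrays, as for 14.2% of probe sets, and 11.2% of all probe sets were called in that contrast. The call was lost with quantile normalization (adjusted p = 0.51), with aligned 75th percentiles (adjusted p = 0.081) and when the fit held just the 6 arrays being compared (adjusted p = 0.0651). It was also lost without blade WL replicate 2 (limma adjusted p = 0.0683), blade WL replicate 3 (0.0718), blade FRD replicate 2 (0.0875) or blade FRD replicate 3 (0.051). Both normalizations align the WL arrays with the others, although the deposited ratios hold each probe set's white-light median at 1. In comparisons with WL neither is therefore a plain check of the call.

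**Figure D2:**
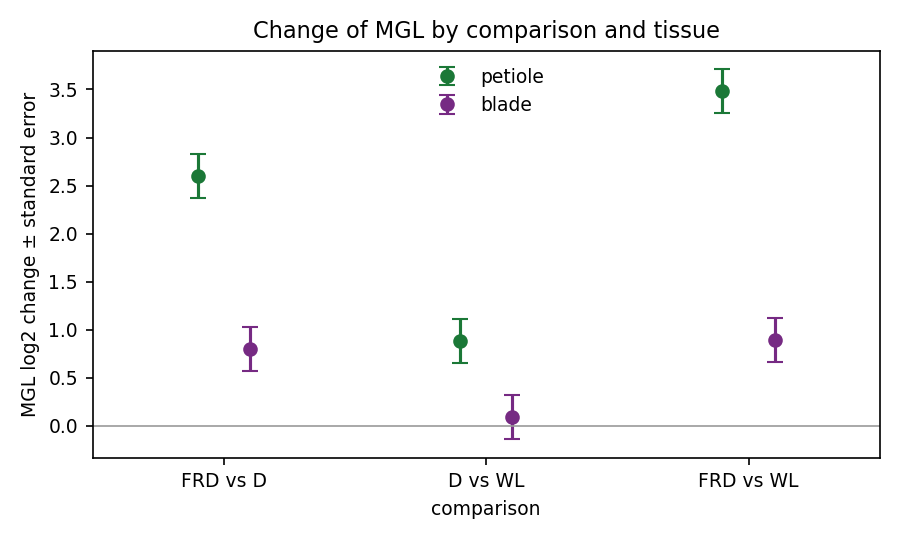
MGL log2 change (vertical axis) for the pulse (FRD vs D), darkness (D vs WL) and both (FRD vs WL), in petioles (green) and blades (purple); bars are standard errors of the limma fit. The petiole changes are 2.6, 0.88 and 3.48 and the blade changes 0.8, 0.09 and 0.89.

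Set side by side, the MGL difference was larger in petioles than in blades in each comparison of light treatments. The petiole change exceeded the blade change by 1.8 ± 0.33 log2 units for the pulse (FRD over D), by 0.79 ± 0.33 for darkness (D over WL) and by 2.59 ± 0.33 for both together (FRD over WL). On a linear scale the petiole pulse ratio was thus 3.48 times the blade pulse ratio. Of the 22746 probe sets tested, 825 had a more positive petiole excess for the pulse, 2494 for darkness and 332 for both together. These differences contain the petiole arrays for which the gene was chosen and are given without a test. A difference of changes is free of the division by white-light medians, because that division drops out within each tissue.

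**Figure D3:**
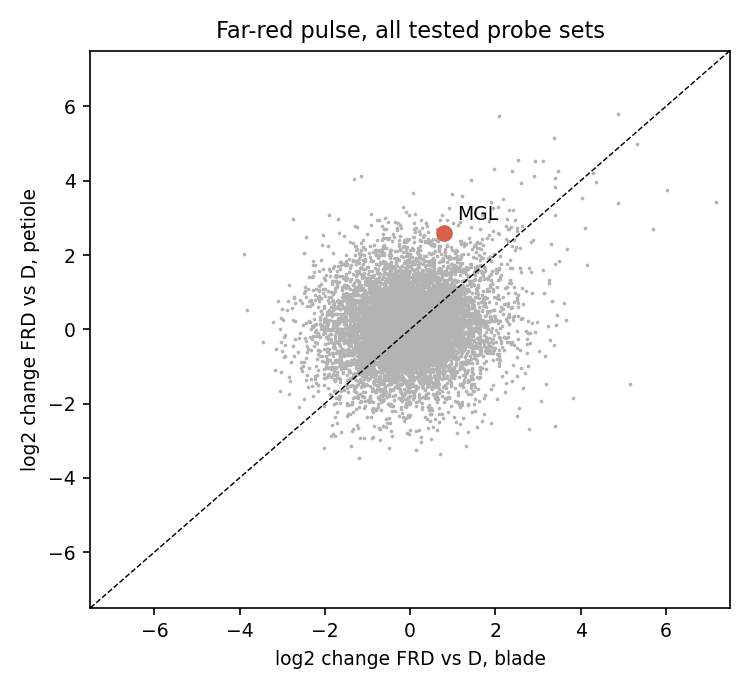
Log2 change after the far-red pulse (FRD over D) in blades (horizontal axis) and petioles (vertical axis) for all 22746 tested probe sets in grey, with MGL marked and the dashed line at equal change. MGL lies above the line, at 0.8 in blades and 2.6 in petioles.

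Pooled over the 6 groups, the spread of MGL between replicates was ordinary. Its residual SD was 0.28 log2 units over 12 residual degrees of freedom, against a median of 0.33 over all tested probe sets, and 56.1% of probe sets had a larger one. The petiole FRD arrays alone had an SD of 0.49. With the compared arrays alone, the petiole standard errors were 0.28 for FRD over D and 0.31 for FRD over WL. For D over WL it was 0.2, where the full fit gave 0.23 for each. The median change over all tested probe sets lay between -0.03 and 0 in the 6 comparisons, so the MGL values above are close to values relative to a typical probe set.

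The genes whose pattern was most like MGL were found by the root mean square difference of log2 ratio over the 18 arrays. The search covered 13510 probe sets annotated to 1 gene and complete in all arrays, whose median difference from MGL was 1.72 log2 units. The closest 5 were AT3G55840 at 0.51, AT4G03140 at 0.57, AT3G50340 at 0.59, P1R3 (AT3G29370) at 0.64 and AT5G57760 at 0.67. They were chosen for their values, so what follows is a description.

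AT3G55840 was close to MGL in petioles and less so in blades. Its ratios were 10.21, 12.97 and 11.6 in FRD petioles, 1.399, 1.204 and 2.374 in D petioles, and 1, 1.352 and 0.939 in WL petioles. In blades it stood at 1.426, 0.922 and 1.947 in FRD and at 1.665, 1.693 and 1.648 in D. Its FRD blades therefore overlapped its D blades, with a change of -0.29 ± 0.31 log2 units for the pulse.

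AT4G03140 had ratios of 6.055, 11.16 and 4.213 in FRD petioles and 1.455, 1.167 and 1.746 in D petioles, while its FRD blades differed from its D blades by 0.05 ± 0.29 log2 units. AT3G50340 was higher in FRD than in D in both tissues, by 2.32 ± 0.16 log2 units in petioles and 1.63 ± 0.16 in blades. P1R3 and AT5G57760 likewise had larger blade differences than MGL, at 1.66 ± 0.55 and 1.65 ± 0.5. Over the 9 blade arrays alone the 5 genes differed from MGL by 0.44 to 0.66 log2 units.

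**Figure D4:**
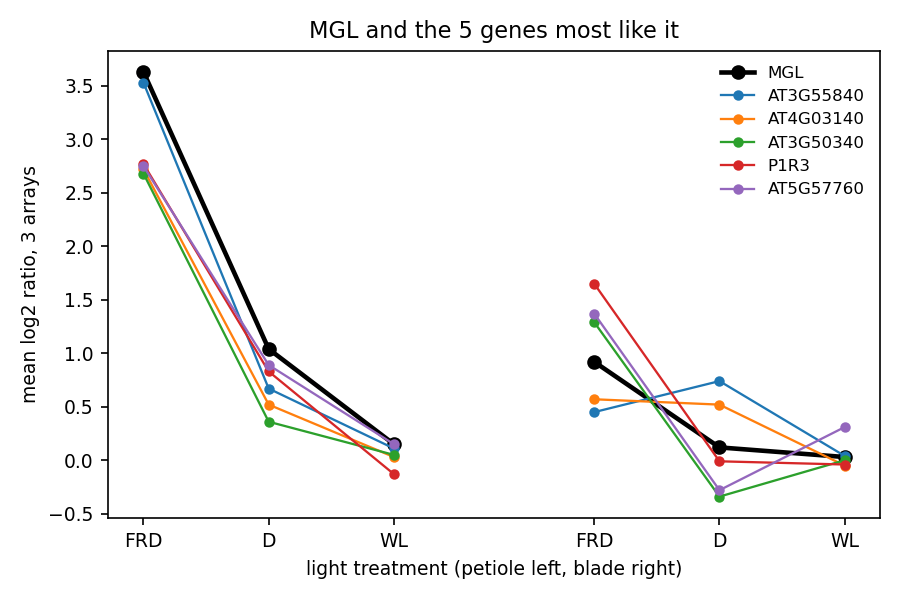
Mean log2 ratio of 3 arrays (vertical axis) for MGL (black) and the 5 genes with the smallest difference from it over 18 arrays, in petioles on the left and blades on the right, each as FRD, D and WL. In petioles all 6 descend from FRD to WL, with FRD means between 2.68 and 3.63; in FRD blades they lie between 0.45 and 1.65.

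Other enzymes around methionine were followed through lists of 93 genes. They cover methionine synthesis, the S-adenosylmethionine cycle, the aspartate family with threonine, branched-chain amino acid synthesis and breakdown, ethylene synthesis, the methylthioadenosine (Yang) cycle that recycles the sulphur of methionine, cysteine synthesis, and glucosinolates made from methionine. Only 17 of the 93 genes have a named probe set here, and none of the 8 genes of the S-adenosylmethionine cycle or the 13 of cysteine synthesis. Of the 17, 8 carry a locus code in place of a symbol in the tables used here and are given without a role.

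After the pulse in petioles, 2 of the 17 genes were called, both higher (limma), against 1.09% of all probe sets called, and the median change of the 17 was -0.1 against -0.02 for all probe sets. The same contrast in blades called 0 of the 17 by limma, against 0.651% of all probe sets called, with a median of -0.1. At an unadjusted limma p under 0.05 the count there was also 0, and the share of all probe sets at that threshold was not computed.

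HMT-1 (AT3G25900), a homocysteine S-methyltransferase that makes methionine from homocysteine, was the measured gene of methionine synthesis that rose with the pulse. Its ratios were 2.161, 4.023 and 2.693 in FRD petioles, 1.253, 0.958 and 1.352 in D petioles, and 1, 0.962 and 1.003 in WL petioles. All FRD petiole arrays lay above all others, and the change over darkness was 1.28 ± 0.2 log2 units (2.43-fold, limma adjusted p = 0.00594). In blades HMT-1 had 1.174, 1.12 and 1.209 in FRD and 0.979, 0.766 and 1.136 in D. The petiole pulse change exceeded the blade change by 0.98 ± 0.29 log2 units, which did not pass the test of that difference (limma adjusted p = 0.628).

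The other measured genes entered in the list of methionine synthesis were not called for the pulse in petioles. CBL, cystathionine beta-lyase, which forms homocysteine, stood at -0.14 ± 0.22 log2 units for the pulse in petioles (limma adjusted p = 0.978). MMT, methionine S-methyltransferase, which turns methionine into S-methylmethionine, stood at -0.04 ± 0.18 there (limma adjusted p = 0.996). It fell by 0.59 in FRD against WL blades, with a standard error of 0.18 (limma adjusted p = 0.0459). This was its single call in the 6 comparisons, and it was lost without any of 5 of the 6 compared arrays.

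The locus AT5G09300, entered in the list of branched-chain amino acid breakdown, was the second gene that rose with the pulse in petioles. It had ratios of 1.11, 0.846 and 1.756 in FRD petioles, 0.257, 0.176 and 0.15 in D petioles, and 1, 1.738 and 0.793 in WL petioles. The dark petioles alone were low: the gene changed by 2.64 ± 0.33 log2 units in FRD over D (limma adjusted p = 0.00114) and by -2.56 ± 0.33 in D over WL (limma adjusted p = 0.000815). Unlike MGL, its FRD petioles overlapped its WL petioles. The pulse calls of HMT-1 and AT5G09300 in petioles were both lost with quantile normalization (adjusted p = 0.19 and 0.0681) and with the compared arrays alone (0.271 and 0.111). The floor on ratios at their 10th percentile, 0.553, lay above every D petiole ratio of AT5G09300. It replaced those ratios, so that both changes had to shrink. They stood at 1.1 (limma adjusted p = 0.151) and -1.01 (limma adjusted p = 0.0642), and neither call was kept. This loss does not show whether the signal was near background. The petiole pulse change exceeded the blade change by 2.43 ± 0.47, which did not pass the test of that difference (limma adjusted p = 0.201).

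In D against WL petioles 3 of the 17 were called, 2 higher and AT5G09300 lower, against 5.6% of all probe sets, and in D against WL blades 4 were called, 3 higher and 1 lower, against 11.2%. MCCA, a subunit of methylcrotonyl-CoA carboxylase in leucine breakdown, had ratios of 2.747, 2.016 and 1.758 in D petioles and 1.033, 1 and 0.921 in WL petioles. It rose by 1.12 ± 0.28 log2 units in petioles and by 1.56 ± 0.28 in blades (limma adjusted p = 0.034 and 0.00304), and leaving out any 1 of the compared arrays ended the petiole call. IVD, isovaleryl-CoA dehydrogenase of the same pathway, rose in dark blades by 1.27 ± 0.21 (limma adjusted p = 0.00182). In dark petioles IVD was not called, at 0.67 ± 0.21 (limma adjusted p = 0.0865). MCCB and AT2G26800, entered in the list of branched-chain amino acid breakdown, were called in darkness in neither tissue. They stood at 0.26 ± 0.17 and 0.11 ± 0.15 in petioles and at 0.24 ± 0.17 and 0.13 ± 0.15 in blades. AT5G09300, of that list, stood at -0.12 ± 0.33 in dark blades and was not called there.

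AT2G31810, entered in the list of branched-chain amino acid synthesis, rose in darkness by 1.16 ± 0.15 log2 units in petioles and 1.25 ± 0.15 in blades. It stood at 1.919, 1.991 and 1.593 in FRD petioles, against 2.209, 2.094 and 1.947 in D petioles, and no change with the pulse was called. ARD4 (AT5G43850), an acireductone dioxygenase of the Yang cycle, fell in D against WL blades by 0.55, with a standard error of 0.16 (limma adjusted p = 0.0458), a call that was lost without any 1 of the compared arrays.

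In FRD against WL, 5 of the 17 genes were called in petioles, 3 higher and 2 lower, against 8.31% of all probe sets, and 6 in blades, 3 higher and 3 lower, against 11.2%. Over all probe sets that is 1891 and 2537 calls, which fell to 183 and 187 with quantile normalization. HMT-1 rose most in petioles, by 1.53 ± 0.2 log2 units (limma adjusted p = 0.000548). AT1G72810 and ARD4 fell in both tissues, by 0.95 and 0.72 in petioles and by 0.77 and 0.66 in blades, and all 4 calls were lost without some single array. AT1G12010, the single measured gene entered for ethylene synthesis, was not called in any of the 6 comparisons, with 1.07 ± 0.82 in FRD against WL petioles. BCAT4, an aminotransferase of glucosinolate synthesis from methionine, stood at -0.3 ± 0.24 for the pulse in petioles and was not called in any comparison.

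**Figure D5:**
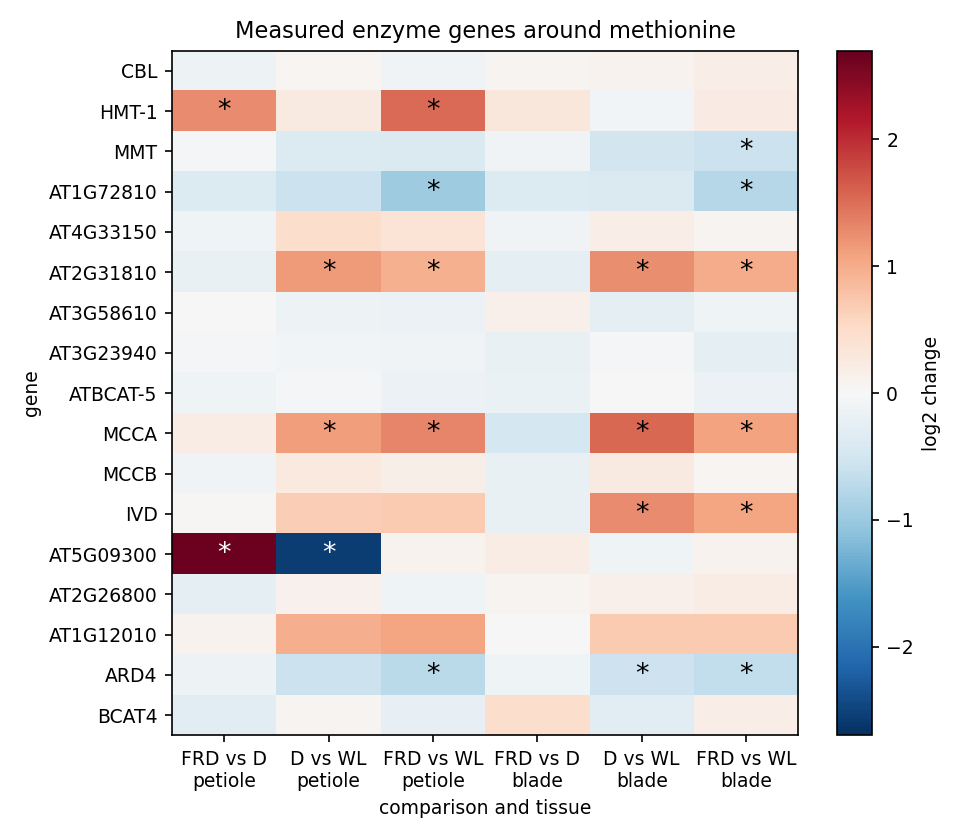
Log2 change (colour, red higher and blue lower) of the 17 measured list genes (rows) in the 6 comparisons (columns, petioles left and blades right); a star marks a limma adjusted p under 0.05. In the petiole FRD against D column the stars are on HMT-1 (1.28) and AT5G09300 (2.64), and the blade FRD against D column has none.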

How the data were processed

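The deposited values are linear ratios per probe set on Affymetrix arrays; from the values, the authors divided each probe set by the median of that tissue's white-light arrays. Summarization, background correction and scaling before that are not given in the sources used here. Biotin-labelled cRNA was used, per the labels' protocols. The 64 control probe sets were left out, 22746 were tested, and 3 values are missing. Log2 ratios, with no pseudocount, went into limma 3.58.1 under R 4.3.3 (1 mean per group, 18 arrays, prior degrees of freedom 1.459), two-sided, with Benjamini-Hochberg adjustment over all tested probe sets per comparison. The fit was tested on simulated data. Probe sets annotated to 1 gene number 13513, of which 13436 matched a RefSeq locus (TAIR10.1). The array files name no build, so no coordinates are given. MGL and the lists were chosen with earlier results of these data known. Named genes are MGL, the 5 most like it, and list members called in any comparison, up to 4 per list. Members that describe a count are also named. CBL, MCCB, AT2G26800, AT1G12010 and BCAT4, not called, were added after their values were seen. Alternatives were 2 normalizations, a floor on low ratios, a fit of the compared arrays, the replicate number as a block, array weights, and leaving out each array. The planned promoter motif search was not made, as no sequences were used here. Depth does not apply to arrays; their number limits the precision.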

Additional observations from a re-analysis of the deposited data

How the results depend on the processing

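For MGL, the pulse difference in petioles kept its direction in all alternatives, from 2.37 to 2.85 log2 units without single arrays and 2.38 with quantile normalization. FRD over WL in petioles moved to 2.99 with quantile normalization and 3.17 with aligned 75th percentiles, and its excess over blades to 2.3 with quantile normalization. D over WL in petioles went from 0.88 to 0.61 ± 0.31 with quantile normalization and to 0.6 ± 0.22 with aligned 75th percentiles. Aligning the 75th percentiles shifts the median of all probe sets to between -0.35 and -0.29 in the comparisons with WL. In D against WL blades MGL changed sign, to -0.24 (limma adjusted p = 0.489), above that median of -0.35. In FRD over WL blades the call was lost at 0.69 with quantile normalization, 0.59 with aligned 75th percentiles and 0.89 with the compared arrays alone, and values without single arrays ran from 0.78 to 0.98. FRD over D in blades was called in no alternative (adjusted p from 0.121 to 1).

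Among the 17 list genes, 2, 3 and 5 were called in petioles (FRD against D, D against WL, FRD against WL). Quantile normalization gave 0, 1 and 1 there, and 0 in D against WL and FRD against WL blades, where 4 and 6 were called. The compared arrays alone gave 0, 0 and 1 in petioles and 1 in FRD against WL blades. In D against WL, aligned 75th percentiles gave 5 in petioles and 7 in blades, and array weights 5 in petioles. The floor gave 1 in FRD against D petioles. Leaving out single arrays gave, in FRD against WL, 3 to 5 in petioles and 2 to 4 in blades. Of the 20 calls of named list genes, 2 stayed with quantile normalization, 5 with the compared arrays alone and 11 whichever single array was left out. Over all probe sets, FRD against D had 249 calls in petioles and 148 in blades, and 33 and 32 with quantile normalization or 14 and 10 with the compared arrays alone. The causes were not tested.

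Equal replicate numbers are not stated to mark a shared batch, and the correlation of deviations from group means exceeded 0.1 in 6 of 18 same-number pairs within a tissue, all of replicate 3; those of replicates 1 and 2 reached at most 0.07. Among different-number pairs within a tissue the correlation exceeded 0.1 in 0 of 36. An array correlated best with its own number in 63 of 90 combinations with another group, each such group holding 3 arrays. With the replicate block MGL stood at 2.6 ± 0.2 in FRD over D petioles and 0.8 ± 0.2 in blades (adjusted p = 0.121). MGL stayed called in FRD over WL blades (adjusted p = 0.0107), and ARD4 in D against WL blades was lost (adjusted p = 0.0515).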

Other observations

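Of the 3 protein-coding genes on either side of MGL in the RefSeq order of chromosome 1 (TAIR10.1), 3 have a named probe set. None was called for the pulse in petioles, where 1.09% of all probe sets were called, so this says little about them. AT1G64650, the nearest on the lower side, stood at -0.22 ± 0.15 log2 units in FRD over D petioles (limma adjusted p = 0.834). AT1G64680 stood at 0.05 ± 0.17 (limma adjusted p = 0.992), and BLT (AT1G64690) at 0.99 ± 0.46 (limma adjusted p = 0.615). AT1G64650 fell by 0.57 in FRD against WL blades (limma adjusted p = 0.0275), where MGL was higher and 11.2% of all probe sets were called. These genes were looked up after the MGL values were seen.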
